A study of Mus musculus with 6 samples.

Results

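CFPAC-1, a human cell line of pancreatic adenocarcinoma (PAAD), received either siRNA that targets KRT7 (si-KRT7) or a negative control siRNA (si-Control). Polyadenylated RNA of 3 libraries per group was sequenced. From the 30543 genes of the count table, 10 genes that encode surface and secreted markers of pancreatic cancer were taken by their Ensembl identifiers, and all 10 were present in the table and passed the filter on low counts. The members were CEACAM1 (ENSG00000079385), CEACAM5 (ENSG00000105388), CEACAM6 (ENSG00000086548), LCN2 (ENSG00000148346), AGR2 (ENSG00000106541), TSPAN1 (ENSG00000117472), TSPAN8 (ENSG00000127324), PSCA (ENSG00000167653), MSLN (ENSG00000102854) and LGALS4 (ENSG00000171747). Both groups consisted of 1 parental cell line, and the labels do not say whether the 3 libraries of a group came from separate cultures. The study describes the data shown with its RNA-seq panels as coming from independent experiments, in a statement that covers several assays and does not name the sequenced libraries. The p-values measure the spread between these libraries, which may be technical. The study lists more than 1 siRNA duplex against KRT7. Which duplex each sequenced si-KRT7 library received, and the time of harvest, are not given. The organism given by the labels is the mouse, although CFPAC-1 and every identifier in the table are human.

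These genes encode proteins that pancreatic tumor cells carry on their surface or release, and several are used or studied as markers in serum, in cyst fluid or on extracellular vesicles. CEACAM1, CEACAM5 and CEACAM6 belong to the carcinoembryonic antigen family of cell adhesion molecules, in which CEACAM1 spans the membrane and signals through its cytoplasmic tail, while CEACAM5 and CEACAM6 are held by a glycosylphosphatidylinositol (GPI) anchor. PSCA and MSLN are GPI-anchored as well, TSPAN1 and TSPAN8 are tetraspanins, LCN2 is a secreted carrier of iron-binding siderophores, AGR2 is a protein disulfide isomerase of the secretory pathway, and LGALS4 is a galectin that binds galactose-containing glycans.

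Library totals ranged from 28208896 to 36315802 counts. One library stood apart. Replicate 2 of si-KRT7 had a Pearson correlation of 0.982 with replicate 1 and also 0.982 with replicate 3 over the log2 CPM (counts scaled to a common library size) of the 15736 genes tested, whereas replicates 1 and 3 had 0.992 with each other. Its correlation with each of the 3 si-Control libraries was 0.986, higher than with either library of its own group. The mean chi-square per gene, which is larger the more the counts of a pair of libraries differ, placed it in the same order, at 33.0 to 44.6 against the si-Control libraries and at 79.6 and 61.6 against si-KRT7 replicates 1 and 3. Against the si-Control libraries, si-KRT7 replicates 1 and 3 had correlations of 0.983 to 0.986 and mean chi-squares of 40.5 to 59.1. Both ranges overlapped those of replicate 2. Genes, over which these correlations run, are not independent replicates. KRT7 itself could not be looked up, because no table pairing human identifiers with symbols was used here. The knockdown was therefore not checked at the target gene in these libraries. The study reports knockdown of KRT7 in CFPAC-1 cells by RT-qPCR, without naming the sequenced libraries. Results are given with all 6 libraries and, where it matters, without si-KRT7 replicate 2. That library was singled out because it stood apart in these same data. The p-values without it are therefore likely too small and are given as a description only.

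With all 6 libraries, 0 of the 10 markers passed an adjusted p of 0.05 in edgeR's quasi-likelihood test, where 2.07% of all genes tested did. Likewise 0 of 10 passed that limit together with an absolute log2 fold change over 1, against 0.292% of all genes. The unadjusted p was under 0.05 for 2 of 10 markers, CEACAM1 and AGR2, against 18.6% of all genes. CEACAM1 had the smallest adjusted p, 0.0760 in edgeR, with a lower level in si-KRT7 cells, and AGR2 followed with 0.104 and a higher level. These were also the 2 of 10 markers past the adjusted limit in the DESeq2 Wald test (7.04% of genes with an adjusted p) and in edgeR without a filter on low counts (4.41% of genes). Limma-voom called 0 of 10 (1.96% of genes). Over the 10 markers the median log2 fold change was -0.077, beside 0.011 over all genes tested, and the median absolute log2 fold change was 0.22, beside 0.18. The 95% interval of the fold change lay within 2-fold in either direction for 8 of the 10 markers, the exceptions being TSPAN8 and LGALS4.

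The CPM values of si-Control and si-KRT7 did not overlap for 4 of the 10 markers, CEACAM1, CEACAM6, AGR2 and MSLN, while 24.4% of all genes tested showed no overlap. Each of these 4 had p = 0.1 in an exact permutation test (two-sided), a floor that 3 libraries against 3 cannot pass. The set depended on the scaling: with library size alone 3 markers showed no overlap, CEACAM1, AGR2 and LCN2. CEACAM6 then overlapped because si-KRT7 replicate 2 lay below the highest control, and MSLN overlapped as well. In a bulk sample, fewer cells that express a gene and less RNA per cell cannot be told apart.

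**Figure D1:**
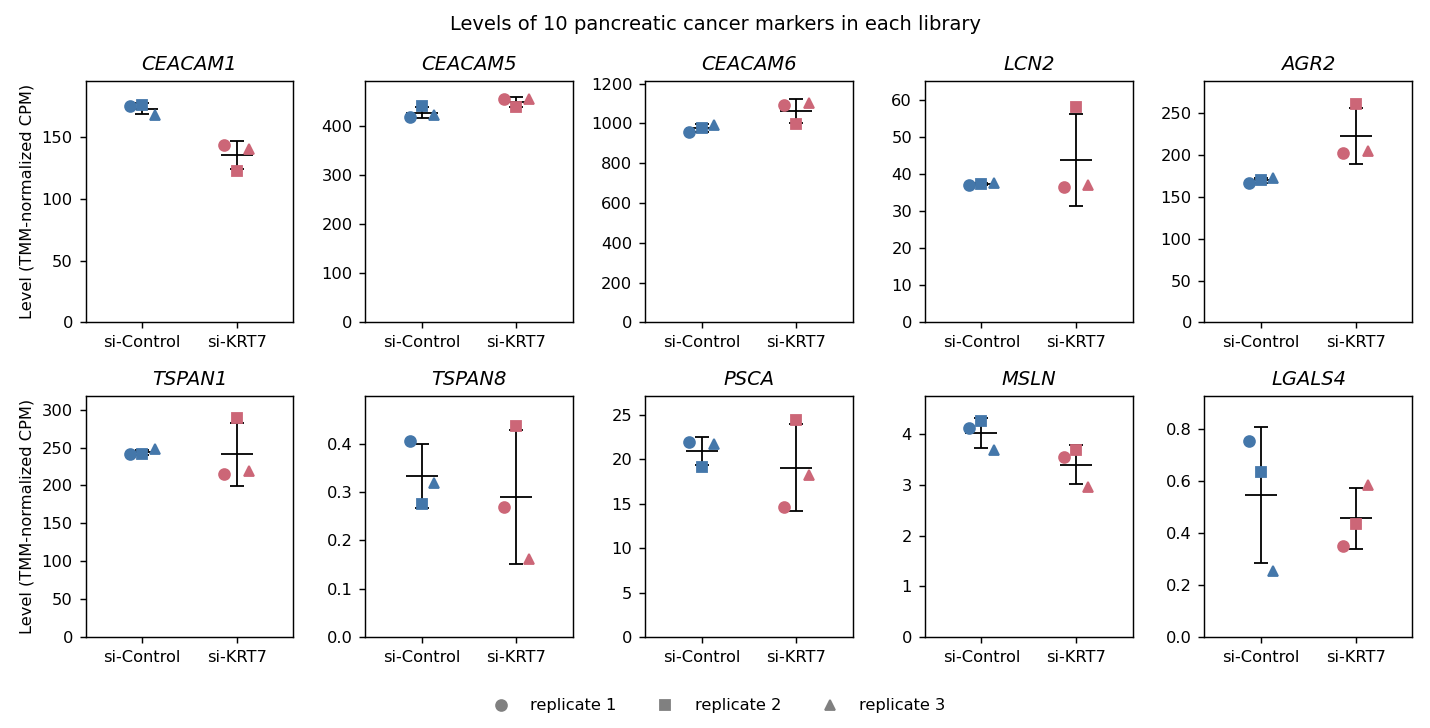
Level of each marker in CPM normalized by edgeR's TMM method (vertical axes from 0, a separate scale per gene) in si-Control (blue) and si-KRT7 (red) libraries; symbols mark replicate numbers, and the horizontal bar and whiskers give the mean and SD of 3 libraries. CEACAM1 lay lower and AGR2 higher in all 3 si-KRT7 libraries, whereas LCN2 stood at 58.1 CPM in si-KRT7 replicate 2 and between 36.4 and 37.7 CPM in the other 5 libraries.

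CEACAM1, the transmembrane member of its family and a coinhibitory receptor, was lower in each si-KRT7 library than in each si-Control library. Its level was 175, 176 and 168 CPM in si-Control replicates 1, 2 and 3, and 143, 122 and 140 CPM in those of si-KRT7. The lowest control and the highest si-KRT7 library were further apart than the controls were from each other. Group means were 173 ± 4.52 CPM in si-Control and 135 ± 11.5 CPM in si-KRT7 (SD, n = 3 each). The log2 fold change was -0.35 (standard error 0.084, 95% interval -0.55 to -0.16) and did not pass the adjusted limit in edgeR. Replicate 2 of si-KRT7 held the lowest value, 70.6% of the si-Control mean, and replicates 1 and 3 stood at 82.9% and 81.2%. Without replicate 2 the log2 fold change was -0.29 with an adjusted p of 1.06e-06 in edgeR.

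CEACAM5, the carcinoembryonic antigen measured in serum, lay above every si-Control library in si-KRT7 replicates 1 and 3 and within the control range in replicate 2. The si-Control libraries held 418, 440 and 423 CPM and the si-KRT7 libraries 455, 438 and 455 CPM. The log2 fold change was 0.072 (95% interval -0.076 to 0.22, adjusted p = 0.598 in edgeR), and an increase beyond 1.17-fold or a decrease beyond 0.949-fold of control lay outside this interval. Without si-KRT7 replicate 2 the log2 fold change was 0.087 (95% interval 0.021 to 0.15) with an adjusted p of 0.0315 in edgeR.

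CEACAM6, a GPI-anchored relative that is abundant on pancreatic tumor cells, had 958, 979 and 995 CPM in si-Control and 1095, 996 and 1103 CPM in si-KRT7 cells. Replicates 1 and 3 of si-KRT7 were higher at 112% and 113% of the si-Control mean, and replicate 2 was just above the highest control at 102%. The log2 fold change of 0.12 (95% interval -0.034 to 0.28) had an adjusted p of 0.381 in edgeR. Without si-KRT7 replicate 2 it was 0.17 with an adjusted p of 5.02e-05 in edgeR.

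Because the ratio of counts of 2 genes within a library does not depend on scaling between libraries, the ratios among the 3 CEACAM genes were also compared between the groups. Counts of CEACAM1 per count of CEACAM6 were 0.183, 0.180 and 0.169 in si-Control replicates 1, 2 and 3, and 0.131, 0.123 and 0.127 in the si-KRT7 replicates. All 3 si-KRT7 libraries, replicate 2 included, lay below all si-Control libraries. The log2 ratio differed by -0.48 between the groups (si-Control mean -2.50 ± 0.061, si-KRT7 mean -2.98 ± 0.047, SD, n = 3; exact permutation p = 0.1, adjusted 0.2 over 4 pairs), and stayed between -0.52 and -0.46 with any 1 library left out.

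CEACAM1 per CEACAM5 showed the same order, with 0.419, 0.400 and 0.396 in si-Control and 0.315, 0.279 and 0.309 in si-KRT7 libraries. The difference in the log2 ratio was -0.43 (exact permutation p = 0.1, adjusted 0.2 over the 4 pairs). The ratio of CEACAM5 to CEACAM6 overlapped between the groups, with 0.426 to 0.449 in si-Control and 0.412 to 0.440 in si-KRT7 libraries (difference in the log2 ratio -0.050, exact permutation p = 0.3, adjusted 0.4). Because 3 libraries against 3 cannot give an exact p under 0.1, none of these differences could pass 0.05. The CEACAM genes have closely similar sequences, and how reads matching several of them were counted is not given in the sources used here, so part of the reads may have been assigned to the wrong member.

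**Figure D2:**
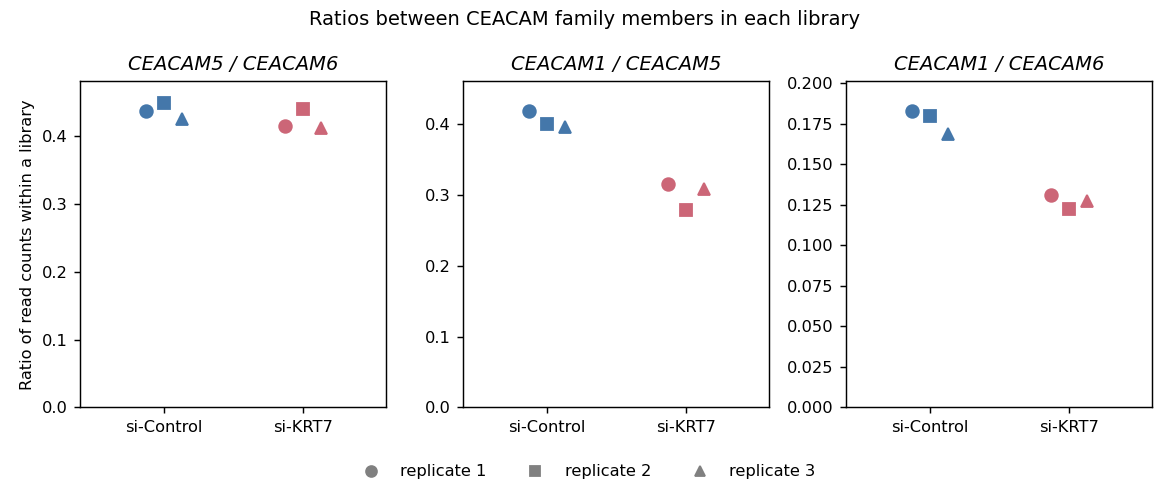
Ratio of read counts between CEACAM genes within each library (vertical axes from 0, unitless), for si-Control (blue) and si-KRT7 (red), with symbols for replicate numbers. CEACAM1 counts per CEACAM5 or CEACAM6 count were lower in all 3 si-KRT7 libraries, at 0.279 to 0.315 against 0.396 to 0.419 and at 0.123 to 0.131 against 0.169 to 0.183, whereas CEACAM5 per CEACAM6 overlapped.

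Among the secreted markers, AGR2 was higher in every si-KRT7 library than in any si-Control library. AGR2 assists the folding of mucins in the endoplasmic reticulum and can be released from the cell. It had 167, 170 and 173 CPM in si-Control replicates 1, 2 and 3, and 202, 261 and 205 CPM in si-KRT7 replicates 1, 2 and 3. Relative to the si-Control mean these were 119%, 154% and 121%, with the highest value in replicate 2. The group means of 170 ± 3.19 CPM for si-Control and 223 ± 33.0 CPM for si-KRT7 (SD, n = 3 each) gave a log2 fold change of 0.39 (standard error 0.11, 95% interval 0.15 to 0.64), which missed the adjusted limit in edgeR. Without replicate 2 it was 0.26 with an adjusted p of 1.79e-06 in edgeR.

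LCN2, also called neutrophil gelatinase-associated lipocalin, differed in 1 library. The si-Control libraries held 37.1, 37.2 and 37.7 CPM and si-KRT7 replicates 1 and 3 held 36.4 and 36.9 CPM, whereas si-KRT7 replicate 2 held 58.1 CPM, 156% of the si-Control mean. The spread among the si-Control libraries was 0.833% of the mean, below the 2.81% that counting alone gives at their mean count, and the spread among the si-KRT7 libraries was 28.3%. With all 6 libraries the log2 fold change was 0.23 (95% interval -0.17 to 0.63, adjusted p = 0.529 in edgeR). Leaving out replicate 2 turned it to -0.029 (95% interval -0.16 to 0.098, adjusted p = 0.755 in edgeR), so the value above 0 rests on that library.

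The tetraspanins organize membrane microdomains and are found on extracellular vesicles. TSPAN1 had nearly equal group means, 244 ± 3.26 CPM in si-Control and 241 ± 41.8 CPM in si-KRT7 cells (SD, n = 3), but its si-KRT7 libraries lay on both sides of the controls. The controls held 242, 242 and 248 CPM, si-KRT7 replicates 1 and 3 lay below them with 216 and 219 CPM, and si-KRT7 replicate 2 lay above them with 289 CPM. The log2 fold change was -0.016 with all libraries (95% interval -0.28 to 0.25, adjusted p = 0.961 in edgeR) and -0.17 without replicate 2 (adjusted p = 1.71e-04 in edgeR).

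TSPAN8 was near the limit of what this depth can show, with 10 to 14 counts in the si-Control and 5 to 12 counts in the si-KRT7 libraries. Summed over 3 libraries its level was 34 counts in si-Control (exact Poisson 95% interval 0.231 to 0.465 CPM) and 27 counts in si-KRT7 cells (0.186 to 0.412 CPM), intervals that cover counting error only. The fold change had a 95% interval from 0.413 to 1.79 (adjusted p = 0.842 in edgeR), so a 2-fold decrease would not be told apart from no change.

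The GPI-anchored markers PSCA and MSLN lay lower in value in si-KRT7 cells, and neither passed the test with all libraries. PSCA, a small protein of the LY6 family, had 21.9, 19.1 and 21.8 CPM in si-Control and 14.7, 24.4 and 18.2 CPM in si-KRT7 replicates 1, 2 and 3. Replicates 1 and 3 lay below every control and replicate 2 above every control. Its log2 fold change was -0.14 (95% interval -0.54 to 0.26, adjusted p = 0.725 in edgeR), and without replicate 2 it was -0.36 (adjusted p = 0.00431 in edgeR).

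MSLN, or mesothelin, is made as a precursor that is cleaved into a surface protein and a released fragment. Between 91 and 154 reads were counted on it per library, which gave 4.12, 4.26 and 3.69 CPM in si-Control and 3.55, 3.67 and 2.95 CPM in si-KRT7 cells. All 3 si-KRT7 libraries lay below the controls, replicate 2 at 3.673 against 3.687 CPM in the lowest control. The log2 fold change was -0.25 (95% interval -0.61 to 0.12, adjusted p = 0.453 in edgeR) and -0.30 without si-KRT7 replicate 2 (adjusted p = 0.194 in edgeR).

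LGALS4, a galectin of digestive tract epithelium, had 26, 23 and 8 counts in si-Control and 13, 12 and 18 counts in si-KRT7 libraries. The 2 outermost values, 0.753 and 0.254 CPM, were both si-Control libraries, and the groups overlapped. Its fold change had a 95% interval from 0.399 to 1.70 (adjusted p = 0.791 in edgeR). As for TSPAN8, no 2-fold decrease could be told apart at this depth.

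**Figure D3:**
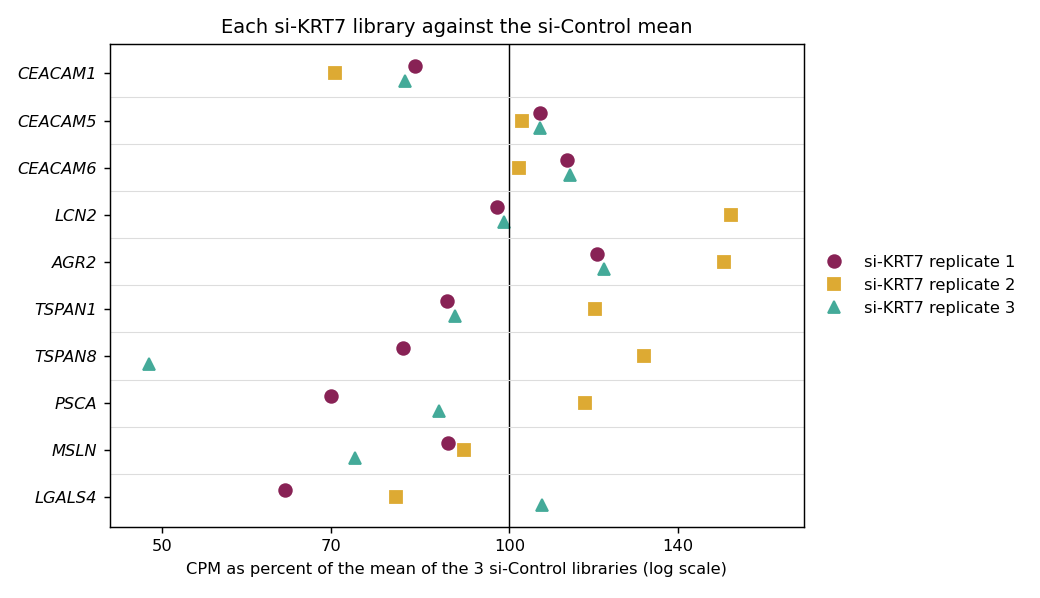
CPM of each marker in si-KRT7 replicates 1, 2 and 3 as a percent of the mean of the 3 si-Control libraries (horizontal log axis, the line marks 100%). Replicates 1 and 3 of si-KRT7 lay close together for CEACAM1, CEACAM5, CEACAM6, LCN2, AGR2 and TSPAN1. Replicate 2 lay above the control mean for LCN2 (156%), AGR2 (154%), TSPAN8 (131%), TSPAN1 (119%) and PSCA (116%), and slightly for CEACAM5 (103%) and CEACAM6 (102%). It lay below the control mean for CEACAM1 (70.6%), LGALS4 (79.7%) and MSLN (91.4%).

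Replicate 2 of si-KRT7 had the highest or lowest value of all 6 libraries for 6 of the 10 markers, against 54.0% of all genes tested. It was the highest library for LCN2, AGR2, TSPAN1, TSPAN8 and PSCA and the lowest for CEACAM1. The distance of replicate 2 from the mean of replicates 1 and 3 on the log2 scale was 1.02 for TSPAN8, which rests on 5 to 12 counts per library and which 5.22% of all genes tested exceeded. It was 0.66 for LCN2, which 15.9% exceeded, and 0.58 for PSCA, which 22.5% exceeded. For TSPAN1 it was 0.41 and for AGR2 0.36, which 40.2% and 47.9% of genes exceeded, and for CEACAM1 it was -0.22, a size that 67.2% exceeded. No cause for its position was tested.

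Without si-KRT7 replicate 2, 6 of the 10 markers passed an adjusted p of 0.05 in edgeR, against 42.9% of all genes in the same fit. CEACAM5, CEACAM6 and AGR2 rose (3 of 10, against 20.9% of genes that rose) and CEACAM1, TSPAN1 and PSCA fell (3 of 10, against 22.0% of genes that fell). The groups did not overlap for 9 of the 10 markers, all but LGALS4, against 60.6% of genes. Among the 9 were LCN2, with a log2 fold change of -0.029, and TSPAN8. TSPAN8 had 10 and 5 counts in si-KRT7 replicates 1 and 3 against 10 to 14 in si-Control. Groups of 2 and 3 libraries fail to overlap more easily than groups of 3 and 3. Each of these changes was small: the fold change ran from 0.780 for PSCA to 1.20 for AGR2, and 0 of 10 passed the fold change limit of 1 on the log2 scale. This fit compares 2 si-KRT7 libraries with 3 si-Control libraries. The biological coefficient of variation common to all genes was 0.0485, against 0.130 with all 6. Leaving out a library picked for standing apart lowers the spread by itself, so the p-values of this fit are likely too small.

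Limma-voom with sample quality weights gave si-KRT7 replicate 2 a weight of 0.0973 and the other libraries weights between 1.20 and 2.11. It called 5 of the 10 markers (CEACAM1, CEACAM6, AGR2, TSPAN1 and PSCA), against 43.6% of all genes. The weights were estimated from these same data, so this fit is not independent of the one without si-KRT7 replicate 2. Its calls are likewise given as a description only.

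**Figure D4:**
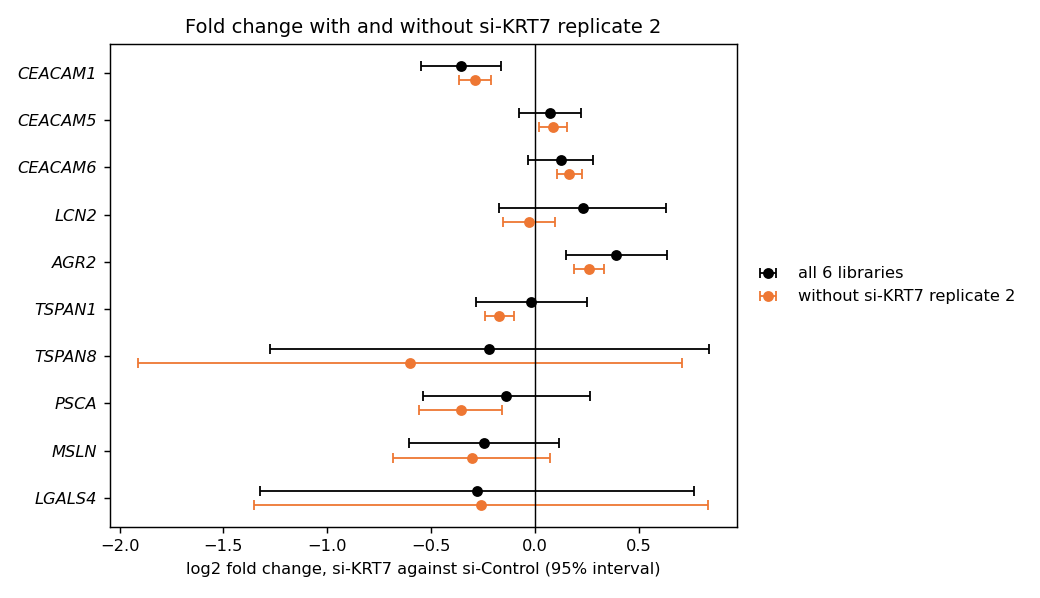
Log2 fold change of each marker in si-KRT7 against si-Control cells (horizontal axis) with its 95% interval from edgeR's quasi-likelihood fit, with all 6 libraries (black) and without si-KRT7 replicate 2 (orange). CEACAM1 (-0.35 and -0.29) and AGR2 (0.39 and 0.26) kept their direction with intervals away from 0 in both fits, while LCN2 moved from 0.23 to -0.029 and the intervals of TSPAN8 and LGALS4 spanned 0 widely.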

How the data were processed

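The authors deposited read counts per gene and library as whole numbers without normalization. The submitters' processing notes name STAR 2.7.11b and the mouse build GRCm39, while all 30543 identifiers are human. The counting tool, human build and annotation are not given in the sources used here. The symbols of the 10 markers came with the list that defined them. As 0 identifiers matched the name tables used here, those of the mouse, KRT7, related gene lists, cell type markers, gene lengths, positions and sequences were not analysed here, and expression levels were not ranked between genes; ratios of counts between related genes were compared between the groups only. The members and lists were chosen with earlier results of these data known, and all 10 members were to be named.

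Differential expression was tested with edgeR 4.0.16 (R 4.3.3) after filterByExpr (minimum count 10, minimum total 15; 15736 genes with 99.9% of counts) and TMM scaling (factors 0.976 to 1.03), using the quasi-likelihood F-test with p-values adjusted by Benjamini-Hochberg over all genes tested. Limits were an adjusted p of 0.05 and, as a stricter limit, an absolute log2 fold change of 1. Standard errors and 95% intervals came from the F statistic and are approximate. Ratios between genes used counts plus 0.5. Exact permutation tests were two-sided over the 20 ways to divide 6 libraries into 3 and 3. Alternatives were DESeq2 1.42.0, limma 3.58.1 with voom, other scalings and filters, a robust fit, each library left out and a replicate block. No library repeated another: the mean chi-square per gene of any pair was at least 3.70, where sampling noise gives about 1.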

Additional observations from a re-analysis of the deposited data

How the results depend on the processing

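The number of markers past the adjusted limit, 0 with all 6 libraries in edgeR, was also 0 in limma-voom, in the robust fit, with the replicate block, with a minimum of 10 counts in each library, and with library size only or DESeq2's size factors as the scaling. It was 2 without a filter on low counts and in the DESeq2 Wald test, and 5 with sample quality weights. The number of all genes past it was 325, and 1347, 941 and 6858 in these last 3 fits. Leaving out 1 library gave 0 to 6 markers and 6 to 6944 genes, the highest without si-KRT7 replicate 2 and the lowest number of genes without si-Control replicate 1 or 2 (10 without si-Control replicate 3, 36 without si-KRT7 replicate 3, 87 without si-KRT7 replicate 1). The number of markers without overlap was 4, where 24.4% of all genes tested showed none. It was 4 to 9 with 1 library left out, and 9 without si-KRT7 replicate 2, where 60.6% of genes showed no overlap. For the other libraries left out the share of all genes is not given, and fewer libraries make overlap less likely. The markers' median log2 fold change, -0.077, ran from -0.21 to 0.053 over the left-out libraries. Apart from the libraries left out, the cause was not tested.

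With the replicate block, 76 genes and 0 markers passed. After subtracting group means, libraries with the same number correlated across genes at 0.0520, -0.0798 and -0.0728. With 3 libraries per group and si-KRT7 replicate 2 standing apart, these values cannot tell whether such libraries shared a culture or batch.

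The log2 fold changes of CEACAM1, CEACAM5, CEACAM6, AGR2 and MSLN kept their direction in all 15 alternatives each. LCN2 turned to -0.0059 with sample quality weights and ran from -0.029 to 0.34 with 1 library left out. TSPAN1 turned to 0.0010 with library size only and ran from -0.17 to 0.057 over the left-out libraries, PSCA from -0.36 to 0.020, TSPAN8 from -0.60 to 0.057 and LGALS4 from -0.61 to 0.012. The difference in log2 fold change between TSPAN1 and TSPAN8 was 0.25 (exact permutation p = 0.5) and ran from -0.025 to 0.45. TSPAN8 and LGALS4, with 5 to 26 counts per library, could not be fitted with at least 10 counts in every library and had no adjusted p in DESeq2.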
